A study of Mus musculus with 15 samples.

Results

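The genes described here are 9 genes of early B lymphocyte development: Ebf1, Pax5, Il7r, Rag1, Rag2, Igll1, Vpreb1, Cd79a and Blnk. They were taken by symbol from the deposited expression values, and each had 1 probe set, so that they make up 9 of the 19938 genes tested. RNA was measured on Affymetrix MoGene 1.0 ST arrays, whose probes are spread over the exons of a gene, in cells of FVB/NJ mouse fetal liver at E14.5, in mid-gestation. The cells were separated on magnetic columns by TER119, an antigen of maturing red cells: TER119 positive cells were kept by positive selection, and TER119 negative cells are what was left after depletion. The 4 groups were Klf3 knockout (KO) TER119 positive cells (3 arrays), wild-type (WT) TER119 positive cells (4 arrays), Klf3 KO TER119 negative cells (4 arrays) and WT TER119 negative cells (4 arrays). All 15 arrays share the strain, stage and tissue. The labels do not say how the Klf3 allele was made, whether cells of several embryos were pooled, or whether replicates were separate embryos, so a p-value here covers the spread between samples, whatever part of it is technical.

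B cells of the embryo are first made in the fetal liver, from lymphoid progenitors that receive interleukin 7 through a receptor whose alpha chain is encoded by Il7r. EBF1 and PAX5 are the transcription factors that install and then fix the B cell programme, and the RAG1 and RAG2 proteins together cut DNA to join immunoglobulin gene segments. The joined heavy chain is first tested with a surrogate light chain, made of the Igll1 (lambda 5) and Vpreb1 products, in the pre-B cell receptor, which signals through CD79A and the adaptor BLNK.

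Signals are RMA log2 values, in which differences between dim signals are compressed. The array medians over all probe sets lay between 5.28 and 5.43, and no detection calls were used, so whether a dim signal lay above background is unknown. Il7r and Igll1 were above the array median on all 8 TER119 negative arrays and below it on all 7 TER119 positive arrays. Vpreb1 was above it on all 8 TER119 negative arrays and below it on 3 of 7 TER119 positive arrays. The other 6 genes were below the array median on 14 or 15 of the 15 arrays, so for Ebf1, Pax5, Rag1, Rag2, Cd79a and Blnk a real difference may be understated.

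A check of the labels came first. The Klf3 probe set averaged 10.47 ± 0.11 in KO TER119 positive arrays (SD, n = 3) and 10.22 ± 0.26 in WT TER119 positive arrays (SD, n = 4), and 8.34 ± 0.34 in KO and 8.38 ± 0.37 in WT TER119 negative arrays (SD, n = 4 each). The genotypes were not told apart by it in TER119 positive (adjusted p = 1) or TER119 negative cells (adjusted p = 0.947). Where the probes lie relative to the deleted part of Klf3 is not given in the sources used here, so this probe set checks nothing and the genotype rests on the labels. Klf8, a gene that KLF3 represses, was higher in the KO-labelled arrays by 3.06 in TER119 positive (SE 0.12, adjusted p = 1.64e-10) and by 0.75 in TER119 negative cells (SE 0.11, adjusted p = 0.0148). The TER119 negative call was lost in 7 of 26 alternatives (differences of 0.69 to 0.86 over all 26, adjusted p up to 0.384), among them those without KO TER119 negative replicate 3, WT TER119 negative replicate 1 or 2, or the 3 arrays described next.

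Between the fractions, in WT cells, 16 of 18 erythroid markers were higher in the TER119 positive fraction, and so were 19 of 19 hepatocyte-lineage markers and 14 of 15 macrophage markers, while 15 of 15 neutrophil markers and 9 of 11 progenitor markers were lower. Of all genes, 23.5% were higher and 29.1% lower there. The labels name no batch, but name the arrays by one scheme in the positive and by another in the negative fraction, so fraction and any batch tied to it cannot be told apart. On the first principal component of the 8 TER119 negative arrays (54.2% of their variance), KO replicate 4 (18.8) and WT replicates 2 (25.9) and 4 (45.3) scored above 0 and the other 5 arrays from -25.4 to -9.35, so results that rest on those 3 arrays are given with and without them. Judged by Xist and Y-linked genes, KO TER119 negative arrays were 1 male and 3 female, and WT TER119 negative arrays 4 male and 0 female. KO TER119 positive arrays were 1 male and 2 female, and WT TER119 positive arrays 2 male and 2 female. Within groups, pairs of arrays correlated at 0.965 to 0.992.

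The promoters of Il7r and Vpreb1 are shown because, of the 9 genes, these had the highest mean signals in TER119 negative cells. That of Igll1 is shown with Vpreb1, since their products form 1 complex. Igll1 and Vpreb1 are neighbours on chromosome 16, as Rag1 and Rag2 are on chromosome 2. Each sequence holds 300 bases, from 250 before to 50 after the transcription start, on the gene's strand, from RefSeq on GRCm38.p6: chr15:9529827-9530126 (minus strand) for Il7r, chr16:16863936-16864235 (minus strand) for Igll1 and chr16:16869206-16869505 (minus strand) for Vpreb1. Capitals mark matches on either strand to CCCNNGGG (a half-site palindrome of EBF1), to CANNTG (the E box bound by E proteins) and to CACCC (the box bound by KLF proteins).
Il7r: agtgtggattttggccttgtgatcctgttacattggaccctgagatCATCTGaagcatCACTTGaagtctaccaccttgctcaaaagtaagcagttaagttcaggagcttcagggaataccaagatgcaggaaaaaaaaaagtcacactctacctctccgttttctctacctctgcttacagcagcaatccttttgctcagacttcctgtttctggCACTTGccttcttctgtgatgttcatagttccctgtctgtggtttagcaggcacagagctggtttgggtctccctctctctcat
Igll1: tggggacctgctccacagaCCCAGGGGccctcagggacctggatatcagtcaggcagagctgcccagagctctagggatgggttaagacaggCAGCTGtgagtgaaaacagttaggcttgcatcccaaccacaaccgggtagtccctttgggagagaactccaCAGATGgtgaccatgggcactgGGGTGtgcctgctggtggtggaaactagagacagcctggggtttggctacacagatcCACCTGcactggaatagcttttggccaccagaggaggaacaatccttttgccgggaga
Vpreb1: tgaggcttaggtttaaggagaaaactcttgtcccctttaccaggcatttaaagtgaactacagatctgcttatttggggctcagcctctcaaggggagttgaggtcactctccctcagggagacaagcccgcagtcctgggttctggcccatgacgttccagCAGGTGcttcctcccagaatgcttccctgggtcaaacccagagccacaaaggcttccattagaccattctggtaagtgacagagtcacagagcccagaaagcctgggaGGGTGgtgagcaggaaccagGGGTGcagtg
All 9 genes had a promoter in the table. CCCNNGGG was found in the window of 1 of the 9 genes, Igll1, and in 13.7% of the 32851 windows of all genes. CANNTG was found in 9 of 9 genes and in 72.3% of all windows, and CACCC in 8 of 9 genes, Il7r being the exception, and in 57.5% of all windows. GAGGAA, the core that PU.1 binds, was found in 5 of 9 genes (Cd79a, Ebf1, Igll1, Rag2 and Vpreb1) and in 28.3% of windows. TGGGAA, an Ikaros core, was found in 2 of 9 genes (Ebf1 and Rag1) and in 25.6% of windows, and TATAAA in 0 of 9 genes and 13.6% of windows. Matches could overlap, Ebf1 has 2 windows and counts once, and a match describes letters only.

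Of the 9 genes, 5 were lower in TER119 positive than in TER119 negative cells, in KO-labelled as in WT cells: Il7r, Igll1, Vpreb1, Rag1 and Ebf1. Over all genes, 26.5% were called lower in KO cells and 29.1% in WT cells. None of the 9 was called between genotypes in either fraction. In TER119 negative cells the KO-labelled means were below the WT means for 8 of 9 genes, as for 53.8% of all genes, without passing the threshold. The widest of these differences, for Igll1, was -0.67 over all arrays and -0.21 without the 3 arrays that stand apart. A gene is called where limma's adjusted p (Benjamini-Hochberg, over the 19938 genes, 2-sided) is under 0.05. In bulk samples fewer cells of a type and less RNA per cell cannot be told apart.

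**Figure D1:**
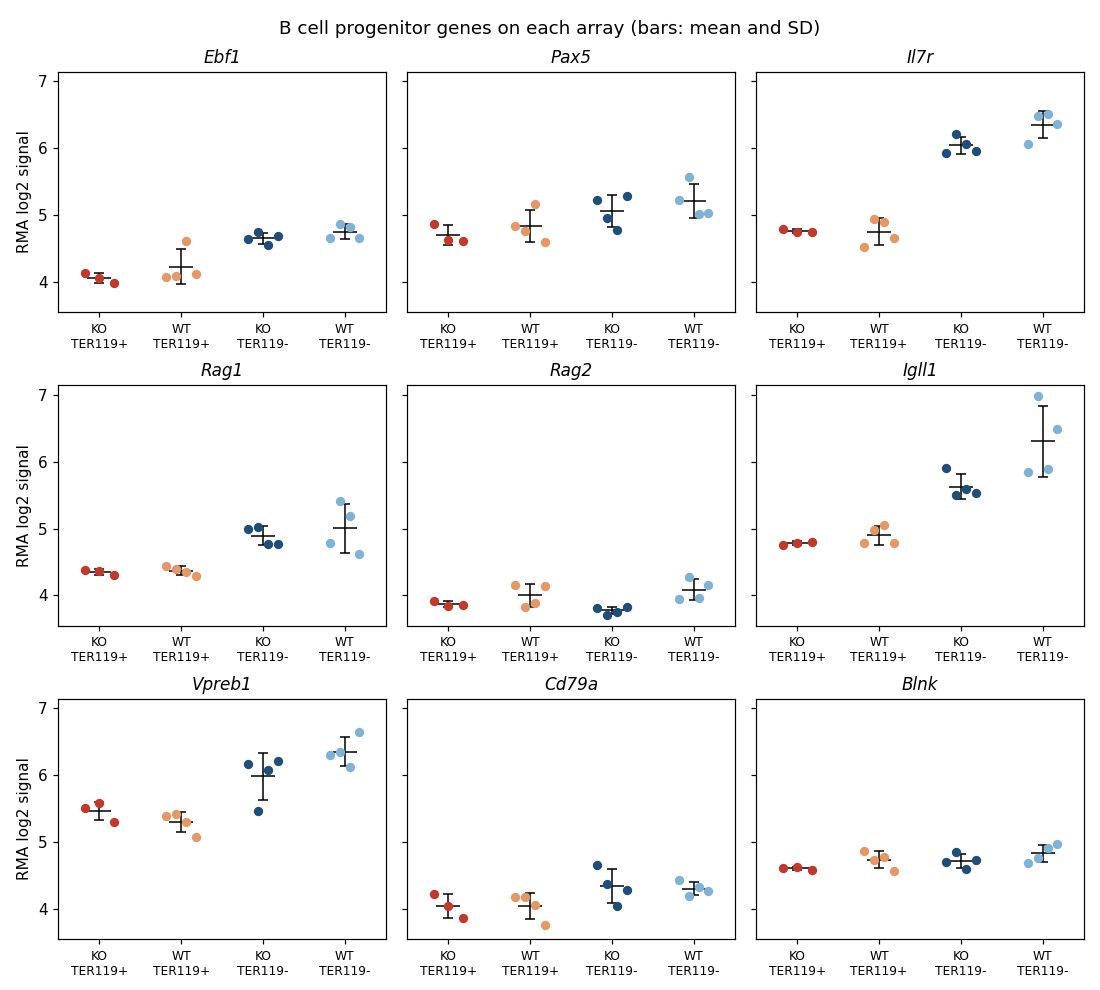
RMA log2 signal (vertical axis) of each gene on each array, with KO and WT TER119 positive and then KO and WT TER119 negative arrays from left to right. Points are arrays in replicate order and bars are the mean and SD. Il7r, Igll1 and Rag1 separate the fractions on every array, while Blnk and Rag2 lie within a narrow band, and heights of different genes are not to be compared.

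Il7r showed the widest difference between the fractions among the 9 genes. Its signal was 4.79, 4.74 and 4.75 in KO TER119 positive arrays and 4.52, 4.94, 4.89 and 4.66 in WT TER119 positive arrays. It was 5.93, 6.20, 6.06 and 5.95 in KO TER119 negative arrays and 6.06, 6.47, 6.50 and 6.36 in WT TER119 negative arrays. Every TER119 positive array lay below every TER119 negative one. The difference, TER119 positive minus negative, was -1.28 in KO cells (SE 0.13, adjusted p = 2.34e-07) and -1.60 in WT cells (SE 0.12, adjusted p = 5.7e-09). The genotypes overlapped in both fractions. KO minus WT was 0.01 in TER119 positive cells (SE 0.13, adjusted p = 1) and -0.31 in TER119 negative cells (95% interval -0.56 to -0.06, unadjusted p = 0.0169, adjusted p = 0.644). In rank, WT TER119 negative cells came first and KO TER119 negative cells second, without a called difference between them, and both TER119 positive groups came after.

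The surrogate light chain genes came next. Igll1 encodes its constant-like chain and stood at 4.75, 4.79 and 4.80 in KO TER119 positive arrays, against 4.78, 4.98, 5.05 and 4.78 in WT TER119 positive arrays. It reached 5.90, 5.50, 5.59 and 5.52 in KO TER119 negative arrays, against 5.85, 6.97, 5.90 and 6.49 in WT TER119 negative arrays. The fractions did not overlap in either genotype, and the WT TER119 negative arrays were the most spread, with replicates 2 and 4 high. The fraction difference was -0.85 in KO cells (SE 0.21, adjusted p = 0.00251) and -1.40 in WT cells (SE 0.19, adjusted p = 9.46e-06). KO minus WT in TER119 negative cells was -0.67 (95% interval -1.08 to -0.27), or 1.60-fold lower, with an unadjusted p of 0.00285 and an adjusted p of 0.517. The lowest 2 WT arrays lay within the range of the KO arrays, and without the 3 arrays that stand apart the difference was -0.21.

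Vpreb1 encodes the variable-like chain of the same surrogate light chain. It stood at 5.50, 5.58 and 5.31 in KO TER119 positive arrays, against 5.39, 5.42, 5.31 and 5.08 in WT TER119 positive arrays. In TER119 negative arrays it was 6.17, 5.47, 6.07 and 6.21 with the KO label, against 6.29, 6.35, 6.12 and 6.64 in WT. KO replicate 2 was low, at the level of the TER119 positive arrays, so the KO fractions overlapped and the WT fractions did not. The fraction difference was -0.52 in KO cells (SE 0.17, adjusted p = 0.0167) and -1.05 in WT cells (SE 0.15, adjusted p = 2.19e-05). The KO call was lost without KO TER119 positive replicate 3 (adjusted p = 0.0783), without KO TER119 negative replicate 4 (adjusted p = 0.051) and with array weights (-0.29, adjusted p = 0.106). KO minus WT was 0.16 in TER119 positive cells (SE 0.17, adjusted p = 1) and -0.37 in TER119 negative cells (95% interval -0.70 to -0.04, unadjusted p = 0.0292, adjusted p = 0.653). The TER119 negative difference was -0.20 without KO replicate 2.

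The recombinase genes differed from each other in pattern. Rag1 encodes the subunit that cuts DNA. Its signal was 4.39, 4.36 and 4.31 in KO TER119 positive arrays and 4.45, 4.40, 4.35 and 4.29 in WT TER119 positive arrays. It was 5.0, 5.03, 4.77 and 4.77 in KO TER119 negative arrays and 4.79, 5.42, 5.18 and 4.62 in WT TER119 negative arrays. The fractions did not overlap in either genotype, and TER119 positive minus negative was -0.54 in KO cells (SE 0.15, adjusted p = 0.00638) and -0.63 in WT cells (SE 0.14, adjusted p = 0.0011). KO minus WT was -0.02 in TER119 positive and -0.11 in TER119 negative cells (SE 0.15 and 0.14, adjusted p = 1 and 0.798).

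Rag2, which encodes the partner that recognises a histone mark, was not called between the fractions. Its signal was 3.92, 3.84 and 3.86 in KO TER119 positive arrays and 4.16, 3.82, 3.88 and 4.14 in WT TER119 positive arrays. In TER119 negative arrays it was 3.82, 3.71, 3.75 and 3.83 with the KO label and 3.95, 4.27, 3.96 and 4.16 in WT. All 4 KO arrays thus lay below all 4 WT arrays in the TER119 negative fraction, which held for 1 of the 9 genes, against 1.41% of all genes in that direction. The difference there was -0.31 (95% interval -0.52 to -0.09, unadjusted p = 0.00777, adjusted p = 0.622), at a signal below every array median. Between fractions the difference was 0.09 in KO cells (SE 0.11, adjusted p = 0.524) and -0.09 in WT cells (SE 0.10, adjusted p = 0.498). In KO cells every TER119 positive array lay above every TER119 negative one, and in WT cells they overlapped. The intervals of these differences, -0.14 to 0.32 in KO and -0.30 to 0.13 in WT cells, leave room for small shifts either way.

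Of the transcription factors, Ebf1 was called between the fractions and Pax5 was not. Ebf1 stood at 4.14, 4.06 and 3.98 in KO TER119 positive arrays and at 4.07, 4.09, 4.62 and 4.12 in WT TER119 positive arrays. It was 4.64, 4.74, 4.55 and 4.69 in KO TER119 negative arrays and 4.66, 4.86, 4.83 and 4.65 in WT TER119 negative arrays. WT TER119 positive replicate 3 stood within the TER119 negative range of the KO-labelled arrays, the other TER119 positive arrays below it. TER119 positive minus negative was -0.60 in KO cells (SE 0.12, adjusted p = 0.000682) and -0.53 in WT cells (SE 0.12, adjusted p = 0.000975). KO minus WT was -0.17 in TER119 positive cells (SE 0.12, adjusted p = 1) and -0.10 in TER119 negative cells (SE 0.12, adjusted p = 0.781).

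Pax5 was 4.87, 4.63 and 4.61 in KO TER119 positive arrays and 4.84, 4.76, 5.17 and 4.60 in WT TER119 positive arrays. In TER119 negative arrays it was 5.23, 4.95, 4.78 and 5.29 with the KO label and 5.23, 5.56, 5.01 and 5.03 in WT. The fractions overlapped in both genotypes. Between fractions the difference was -0.36 in KO cells (SE 0.16, adjusted p = 0.078) and -0.37 in WT cells (SE 0.15, adjusted p = 0.0524). The KO value passed when arrays were centred on their medians (adjusted p = 0.0363), with replicate number as a block (adjusted p = 0.0481) and without KO TER119 negative replicate 3 (adjusted p = 0.0344). The WT value passed, among other settings, when arrays were centred on their medians (adjusted p = 0.0448) and without WT TER119 positive replicate 3 (adjusted p = 0.0166). KO minus WT was -0.14 in each fraction (SE 0.16 in TER119 positive and 0.15 in TER119 negative cells, adjusted p = 1 and 0.762).

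The signalling genes were dim and neither was called in any comparison in the fit over all arrays without covariates. Cd79a encodes the alpha chain of the signalling pair of the pre-B and B cell receptors. It was 4.22, 4.04 and 3.87 in KO TER119 positive arrays, 4.18, 4.18, 4.06 and 3.76 in WT TER119 positive arrays, 4.66, 4.37, 4.04 and 4.28 in KO TER119 negative arrays and 4.43, 4.19, 4.32 and 4.28 in WT TER119 negative arrays. TER119 positive minus negative was -0.30 in KO cells (SE 0.14, adjusted p = 0.1) and -0.26 in WT cells (SE 0.13, adjusted p = 0.111). In WT cells every TER119 positive array lay below every TER119 negative one, and in KO cells they overlapped. The KO value passed without KO TER119 negative replicate 3 (-0.39, adjusted p = 0.03) and with replicate number as a block (-0.39, adjusted p = 0.022). Its partner chain, encoded by Cd79b, was by contrast lower in TER119 positive cells by a difference of -1.89 in KO cells (SE 0.21, adjusted p = 9.21e-07) and -1.78 in WT cells (SE 0.19, adjusted p = 6.97e-07).

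Blnk, the adaptor that couples the kinase SYK to its effectors, was 4.61, 4.63 and 4.58 in KO TER119 positive arrays, 4.87, 4.73, 4.78 and 4.56 in WT TER119 positive arrays, 4.70, 4.86, 4.60 and 4.73 in KO TER119 negative arrays and 4.69, 4.76, 4.90 and 4.98 in WT TER119 negative arrays. All 4 groups overlapped with at least 1 other. Between fractions the difference was -0.11 in KO cells (SE 0.10, adjusted p = 0.384) and -0.10 in WT cells (SE 0.09, adjusted p = 0.389).

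Between the fractions, then, 5 of the 9 genes were called lower in TER119 positive cells and 0 higher in each genotype. The fractions differed over much of the array: 26.5% of all genes were called lower in KO cells and 29.1% in WT cells, and 22.6% and 23.5% higher. The median difference of the 9 genes was -0.52 in KO cells and -0.53 in WT cells, where the median over all genes was -0.06 and -0.09. The fractions did not overlap, with the positive one lower, for 4 of 9 genes in KO cells (30.9% of all genes) and for 6 of 9 in WT cells (24.7% of all genes). In KO cells Rag2 did not overlap in the other direction, as 25.2% of all genes. The same 5 genes were called without the 3 arrays that stand apart, with the sex of the array in the fit and with the mean of the hepatocyte markers in the fit. Without those 3 arrays the Igll1 difference was -0.88 in KO cells and -0.97 in WT cells, which is smaller in WT than with them.

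**Figure D2:**
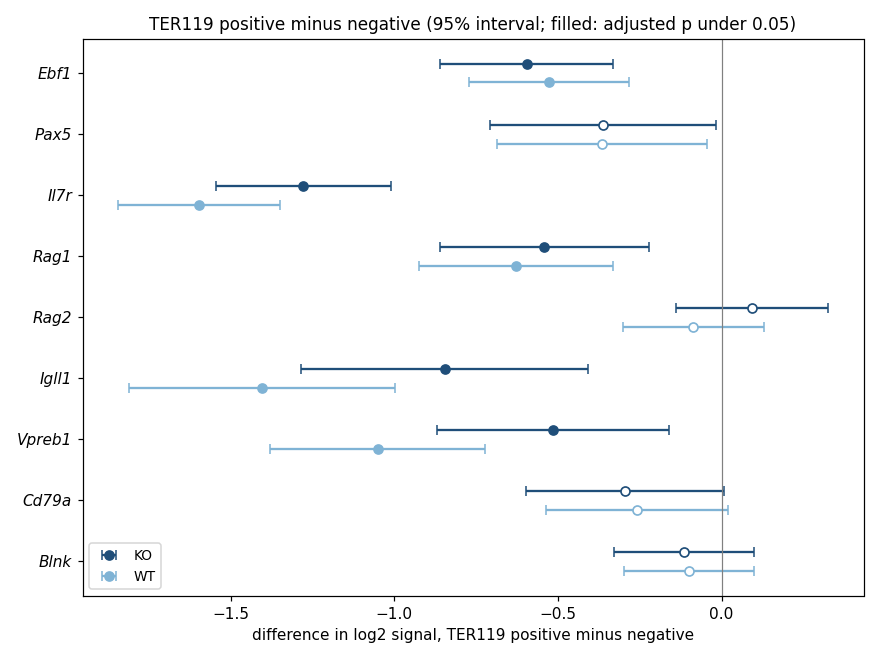
Difference in log2 signal, TER119 positive minus TER119 negative (horizontal axis), for each gene in KO and WT cells. Points are limma estimates, bars 95% intervals, and filled points passed adjusted p 0.05. Il7r, Igll1, Vpreb1, Rag1 and Ebf1 lie below 0 and are filled in both genotypes.

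Between genotypes in TER119 positive cells, 0 of the 9 genes passed, where 1.02% of all genes did, and 0 passed at an unadjusted p under 0.05 (5.33% of all genes did). The differences lay between -0.17 for Ebf1 and 0.16 for Vpreb1. In TER119 negative cells 0 of 9 passed as well, where 0.0853% of all genes did. At an unadjusted p under 0.05 there were 4 of 9 genes, Igll1, Rag2, Il7r and Vpreb1, all lower in KO-labelled cells, against 7.56% of all genes in either direction. The median of the 9 differences was -0.14, and that of all genes -0.02. The smallest adjusted p among the 9 genes was 0.517, and over the alternatives tried for this comparison the adjusted p-values of the 9 genes ran from 0.11 to 1.

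**Figure D3:**
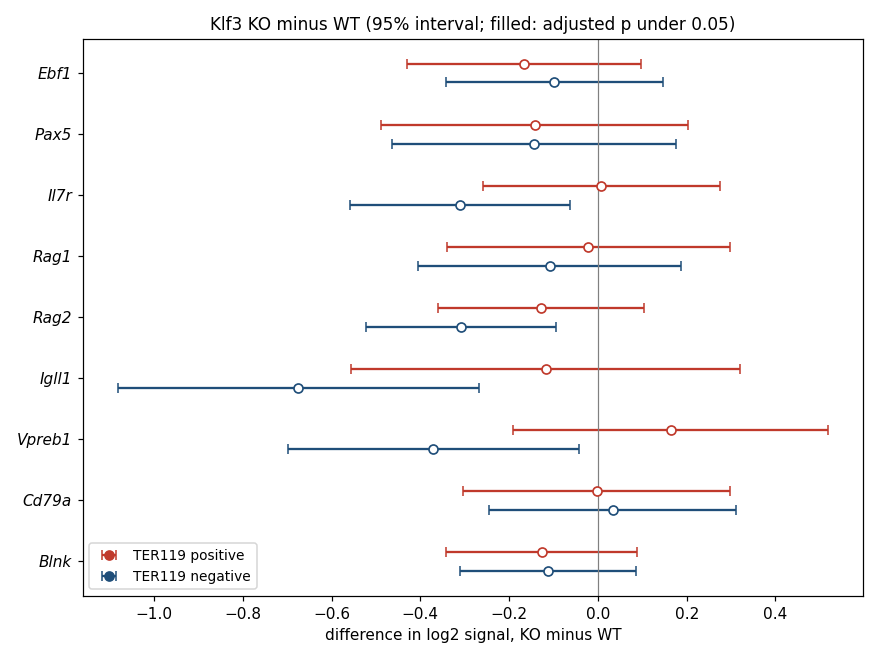
Difference in log2 signal, KO minus WT (horizontal axis), for each gene in TER119 positive and TER119 negative cells. Points are limma estimates, bars 95% intervals, and open points did not pass adjusted p 0.05. All points are open, and in TER119 negative cells the intervals of Igll1, Rag2, Il7r and Vpreb1 lie below 0.

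The size of these TER119 negative differences depended on which arrays were used, most of all for Igll1. For Igll1, Vpreb1, Il7r and Rag2 the difference stayed below 0 in every alternative, without passing after adjustment. WT replicate 2 gave the highest of the 8 TER119 negative values for 5 of the 9 genes (Ebf1, Igll1, Pax5, Rag1 and Rag2), and it was the highest array for 14.9% of all genes. WT replicate 4 was the highest for Blnk and Vpreb1 and for 26.9% of all genes. Without WT replicates 2 and 4 and KO replicate 4, KO minus WT for Igll1 was -0.21 (SE 0.13), for Vpreb1 -0.30 (SE 0.18), for Il7r -0.21 (SE 0.15) and for Rag2 -0.20 (SE 0.11). Each had an adjusted p of 1 in that fit, which holds fewer arrays. Its SE was wider than over all arrays for Vpreb1, Il7r and Rag2 (0.15, 0.12 and 0.10 over all arrays). For Igll1 it was smaller (0.19 over all arrays). The Igll1 difference over all arrays had been -0.67, and it was -0.45 without WT replicate 2 alone.

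Markers of other cells and sex differed between the same arrays. The mean of the 19 measured hepatocyte markers ran from 5.71 to 7.16 in KO TER119 negative arrays and from 5.89 to 8.02 in WT TER119 negative arrays. With that mean in the fit, the 4 differences were -0.56 for Igll1, -0.25 for Vpreb1, -0.27 for Il7r and -0.26 for Rag2. With sex in the fit they were -0.65, -0.48, -0.15 and -0.41 in the same order of genes. Sex nearly follows genotype in the TER119 negative fraction, so that fit separates them poorly. No gene of the 9 passed after adjustment in any of these fits.

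**Figure D4:**
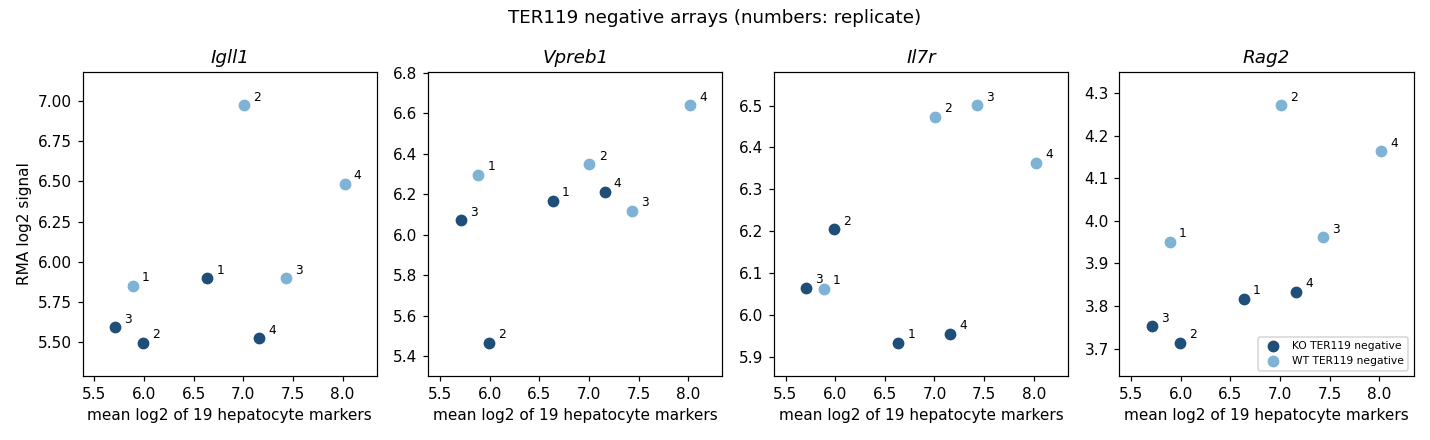
RMA log2 signal (vertical axis) of Igll1, Vpreb1, Il7r and Rag2 against the mean log2 of 19 hepatocyte markers (horizontal axis) on the KO and WT TER119 negative arrays, numbered by replicate. Vertical axes differ between panels. WT replicates 2 and 4 carry the 2 highest values of Igll1 and Rag2, and WT replicate 4 the highest marker mean, 8.02.

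Whether the genotype difference itself differed between the fractions was tested as an interaction. None of the 9 genes passed (0.436% of all genes did), and 1 did at an unadjusted p under 0.05 (4.27% of all genes did). That gene was Vpreb1, with a KO effect higher in TER119 positive than in TER119 negative cells by 0.53 (95% interval 0.05 to 1.02, unadjusted p = 0.0322, adjusted p = 0.999). For Igll1 the interaction was 0.56 (interval -0.04 to 1.16, adjusted p = 0.999). The intervals of both include values near 0 and above 1, so these arrays do not settle the size.

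In the other lists of lymphoid genes, calls were made between the fractions, and Spi1 was the 1 gene called between genotypes. Among 10 measured genes of interleukin 7 receptor signalling, 3 were lower and 2 higher in TER119 positive KO cells, and 4 lower and 2 higher in WT cells. In KO cells that is 30% lower and 20% higher, near the 26.5% and 22.6% of all genes. In WT cells it is 40% and 20%, against 29.1% and 23.5% of all genes. Socs1, an inhibitor of JAK kinases, was lower by -0.90 in KO and -1.11 in WT cells, while Cish (1.58 and 1.01) and Mcl1, a survival factor (1.57 and 1.5), were higher. Il2rg and Jak3, which encode the common gamma chain and its kinase, had no probe set of their own symbol alone and were not analysed here.

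Among 16 genes of the pre-B cell receptor and its kinases, 8 were lower and 2 higher in TER119 positive KO cells, and 7 lower and 0 higher in WT cells. In KO cells that is 50% lower and 12.5% higher, against 26.5% and 22.6% of all genes. In WT cells it is 43.8% and 0, against 29.1% and 23.5% of all genes. Btk, the kinase downstream of the receptor, differed by -2.78 in KO and -2.50 in WT cells, and Plcg2, the phospholipase it activates, by -1.69 and -1.91. Which cells of the TER119 negative fraction carried the Btk and Plcg2 signals was not tested. Vpreb3, which is related to Vpreb1, differed by -0.35 in KO (adjusted p = 0.038) and -0.18 in WT cells (adjusted p = 0.226). The KO call was lost in 6 of 24 alternatives (adjusted p up to 0.158): with the replicate block, without KO TER119 positive replicate 1 or 3, and without KO TER119 negative replicate 2, 3 or 4. Between genotypes, 0 of these 16 genes passed in either fraction.

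Of 29 B lineage transcription factors, 17 were lower and 8 higher in TER119 positive KO cells, and 19 lower and 6 higher in WT cells. The KO shares were 58.6% lower and 27.6% higher, against 26.5% and 22.6% of all genes. The WT shares were 65.5% and 20.7%, against 29.1% and 23.5%, so the higher shares are near those of all genes. Myb differed by -2.76 in KO and -2.57 in WT cells, Mef2c by -2.42 and -2.20, and Ikzf2, an Ikaros family member, by -2.30 in each. Spi1, which encodes PU.1, an activator of Il7r, was the 1 of these 29 called between genotypes. It was 9.04, 9.06 and 9.03 in KO TER119 positive arrays, against 7.01, 6.75, 6.49 and 6.48 in WT TER119 positive arrays, and these did not overlap. KO minus WT was 2.36 in TER119 positive cells (SE 0.22, adjusted p = 5.85e-06) and -0.17 in TER119 negative cells (SE 0.20, adjusted p = 0.784). On the same TER119 positive arrays Il7r differed by 0.01 between genotypes (interval -0.26 to 0.27). Il7r lay below the array median on all 7 of these arrays, where differences are compressed. A link between Spi1 and Il7r was not tested.

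Among 12 measured genes of V(D)J recombination and end joining, 7 were lower and 0 higher in TER119 positive cells in each genotype. The lower share was 58.3%, against 26.5% of all genes in KO and 29.1% in WT cells. Atm, a kinase that senses DNA breaks, differed by -1.29 in KO and -1.23 in WT cells, and Lig4, the ligase that seals the joins, by -1.36 and -0.85. Dntt, which adds bases at the joins, differed by -0.14 in KO and -0.15 in WT cells without passing (adjusted p = 0.301 and 0.22). Of 7 genes of the fetal lymphoid programme, 3 were lower in each genotype (42.9%), with 1 higher in KO (14.3%) and 2 in WT cells (28.6%). In WT cells 1 of these 2 higher calls was lost in 14 of 25 alternatives (adjusted p up to 0.491). Of all genes, 26.5% in KO and 29.1% in WT cells were lower, and 22.6% and 23.5% higher. The lower genes of the programme included Lin28b (-1.02 in KO and -0.63 in WT cells) and Hmga2 (-0.66 and -0.75). Arid3a, a factor of fetal B cells, was higher (0.89 and 0.77).

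Surface markers of lymphoid progenitors were mostly lower in TER119 positive cells, 12 of 16 in each genotype with 1 higher. That is 75% lower, against 26.5% of all genes in KO and 29.1% in WT cells. Cd34 differed by -3.01 in KO and -3.06 in WT cells and Ptprc, the leukocyte antigen CD45, by -2.68 and -3.03. In a panel of 18 measured B cell markers, 14 of whose 20 listed genes are also in other lists, 9 were lower in each genotype and 1 higher in KO cells. The lower share of this panel was 50%, against the same 26.5% and 29.1% of all genes. Cd37, a tetraspanin of B cells that other leukocytes also carry, differed by -2.06 in KO and -2.43 in WT cells. T and natural killer markers, which would mark other lymphocytes, were lower for 5 of 17 genes in KO and 7 of 17 in WT cells, with 1 higher in each, led by Nkg7 (-4.41 and -4.25). The KO share, 29.4%, is near the 26.5% of all genes, and the WT share is 41.2%, against 29.1%. Neutrophil markers were lower for 15 of 15 genes in each genotype, led by S100a9 (-5.95 and -6.76). The part of these other cells in the differences of the 9 genes was not tested.

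**Figure D5:**
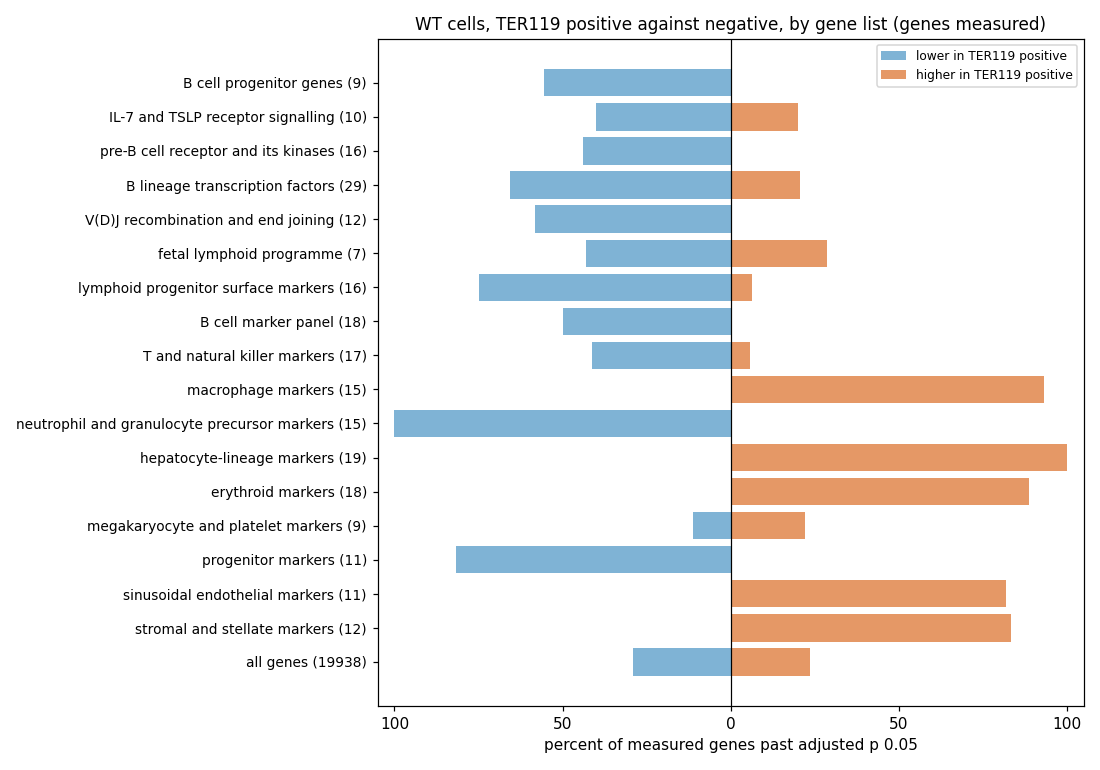
Percent of the measured genes of each list called lower (left) or higher (right) in TER119 positive than in TER119 negative WT cells, with the number measured in brackets. The 9 B cell progenitor genes had 55.6% lower and 0 higher, and all genes 29.1% lower and 23.5% higher.

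Genes whose pattern lay closest to the 3 most separated genes were found by the root mean square difference of centred log2 values over the 15 arrays. For Il7r these were Prom1 (0.17), Vezf1 (0.17) and Pigh (0.17), where the median over all genes was 0.72. For Igll1 they were Klra17 (0.19), Isx (0.23) and Apol7d (0.23), with a median of 0.65. For Vpreb1 they were Neu2 (0.18), Pbk (0.18) and Glis1 (0.19), with a median of 0.48. All 9 of these genes were lower in TER119 positive than in TER119 negative cells, as the measure favours, and none is a B lineage gene of the lists above.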

How the data were processed

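Total RNA of sorted fetal liver cells was hybridised to 15 arrays. The deposited log2 values per probe set were made by the authors with RMA and Partek (versions not stated), per the submitters' processing notes; RMA compresses differences between dim signals. The table held 35399 probe sets, of which 21789 had 1 gene symbol in the platform's gene table, 1621 had several and 11989 are unnamed here. For each symbol the probe set of highest mean was kept (19938 genes).

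A linear model of all arrays, 1 mean for each group, was fitted with limma 3.58.1 (R 4.3.3), with 11 residual and 4.91 prior degrees of freedom, no covariate and no filter. The 5 contrasts were KO minus WT in each fraction, their difference, and TER119 positive minus negative in each genotype. Adjusted p-values are 2-sided, after Benjamini-Hochberg over all genes, with a threshold of 0.05. The script was tested on simulated data. The number of arrays limits precision. No 2 arrays of a group were duplicates (smallest SD of a difference 0.259).

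The 9 genes, the 16 other lists and the alternatives were chosen with earlier results of these data known. Named genes are the 9 in every contrast, list genes called between genotypes, at most the 3 widest called differences per list between fractions, and Cd79b, Vpreb3 and Dntt; another gene that the rule names is not reported here. Closest patterns were sought for genes with a WT fraction difference of at least 1 (log2). Promoters are RefSeq windows on GRCm38.p6. Alternatives were other scalings, eBayes settings, array weights, a filter keeping genes above the array median on at least 3 arrays, the mean over probe sets, sex, a replicate block, hepatocyte markers, arrays of 1 fraction only, and leaving out arrays.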

Additional observations from a re-analysis of the deposited data

Results flagged for a closer look

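On 39 sets of values (a gene in a group of 4 arrays), 3 had an array far from the other 3, where chance gives about 1 in 20. Ebf1 was 4.62 in WT TER119 positive replicate 3, against 4.07 to 4.12 in the other 3 arrays. Dntt was 4.64 in the same array and 4.72 in WT TER119 negative replicate 4. The Spi1 genotype difference was larger in TER119 positive than in TER119 negative cells by 2.53 (SE 0.30, adjusted p = 0.000216).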

How the results depend on the processing

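Of the 9 genes, 0 passed between genotypes, or for the interaction, under every alternative run. Between the fractions 5 passed in each genotype. The filter on dim genes left 3 of them (Il7r, Igll1 and Vpreb1), and all 3 passed in KO and in WT cells; Il7r and Igll1 passed the filter only through the fraction where they are high, so this adds no support. The other alternatives gave between 4 and 7 in KO cells and 5 or 6 in WT cells. Whether the replicate numbers pair KO with WT arrays is unclear, as same-number correlations ran from -0.384 to 0.654. With replicate number as a block 0 of the 9 genes passed between genotypes in TER119 positive or TER119 negative cells. In KO cells Pax5 and Cd79a passed between fractions with that block (adjusted p = 0.0481 and 0.022). Scaling moved the median of all genes by at most 0.07.

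Counts over all genes moved with settings. Between genotypes in TER119 positive cells, 203 genes passed, 386 with array weights, 350 with TER119 positive arrays alone and 323 without the 3 arrays that stand apart. In TER119 negative cells 17 passed, and 31 with array weights, 4 with TER119 negative arrays alone, 10 with the replicate block, 10 with the hepatocyte mean, 8 without those 3 arrays, 7 with sex 8 without KO TER119 negative replicate 3 or WT TER119 negative replicate 2, and 11 without KO TER119 negative replicate 2 or KO TER119 positive replicate 1 or 2.

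Differences near 0 changed sign. KO minus WT in TER119 positive cells became -0.0046, -0.023 and -0.011 for Il7r (median centring, block, hepatocyte mean), and 0.014, 0.033, 0.022 and 0.00023 for Cd79a (quantile, weights, sex, hepatocyte mean). In TER119 negative cells it became 0.033 for Ebf1 (sex), -0.033 and -0.019 for Cd79a (weights, without the 3 arrays), 0.039, 0.070, 0.097, 0.13 and 0.11 for Vpreb3 (centring, quantile, weights, without the 3 arrays, hepatocyte mean), 0.011 for Dntt (quantile) and 0.0018 and 0.031 for Klf3 (centring, sex). The interaction became -0.052, -0.035, -0.078, -0.071, -0.010 and -0.0016 for Pax5 (centring, quantile, block, sex, without the 3 arrays, hepatocyte mean), 0.066 and 0.016 for Cd79a (weights, without the 3 arrays), and -0.047, -0.044, -0.0079 and -0.041 for Dntt (centring, quantile, block, hepatocyte mean). Rag2 between fractions in WT became 0.044 without the 3 arrays. The cause was not tested.

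Leaving out 1 array at a time gave, for KO minus WT in TER119 positive cells, -0.070 to 0.070 (Il7r), -0.050 to 0.0032 (Rag1), -0.097 to 0.084 (Cd79a) and -0.086 to 0.016 (Dntt). In TER119 negative cells it gave -0.24 to 0.030 (Rag1), -0.073 to 0.13 (Cd79a), -0.066 to 0.12 (Vpreb3) and -0.18 to 0.099 (Klf3). For the interaction it gave -0.12 to 0.062 (Ebf1), -0.12 to 0.11 (Pax5), -0.051 to 0.21 (Rag1), -0.13 to 0.071 (Cd79a), -0.071 to 0.033 (Blnk), -0.27 to 0.040 (Cd79b) and -0.044 to 0.081 (Dntt).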
